A study of Mus musculus with 30 samples.

Results

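The 10 interneuron marker genes Gad1, Gad2, Slc32a1, Pvalb, Sst, Vip, Npy, Cck, Lamp5 and Gabrd were followed by name through 28 brain tumours of mice and 2 normal cortex samples. They are 10 of the 24421 genes listed in the deposited tables, and all 10 were among the 15824 genes that passed the filter on low values. The libraries, 1 per sample, were made from polyadenylated RNA of bulk tissue taken at postnatal day 70. Tumours labelled glioblastoma of the cortex had been given the epidermal growth factor receptor EGFR with 1 amino acid change (A289I in 5 libraries, A289V in 4, R108G in 3, R108K in 4, R222C in 3, T263P in 3), wild-type EGFR (3 libraries) or no receptor but mCherry, a red fluorescent protein (3 libraries). The 2 cortex libraries are labelled wild type, with no tumour. The labels do not give the strain, the other lesions that the tumours share, the cells and promoter through which a receptor form was expressed, or its species.

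Cortical interneurons are neurons that release gamma-aminobutyric acid (GABA) and so inhibit their neighbours. They make GABA from glutamate with glutamate decarboxylase, load it into synaptic vesicles, and fall into classes known by a calcium-binding protein or a neuropeptide that each class makes. Not all of the markers are limited to them: in mouse cortex Cck and Lamp5 are also made by excitatory neurons, and Gabrd codes for a subunit of the receptor that senses GABA. A bulk sample mixes all cells of the tissue, so that fewer interneurons and less RNA per interneuron cannot be told apart in these values.

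The unit is RPM, which stands here for a size-factor-normalised count divided by 10.263777, the same constant for every library. The libraries held 2784129 to 24475215 reads, so that 1 read was worth 0.0387 to 0.383 RPM. Mouse Egfr stood at 17.5 to 2790.0 RPM in tumours given a receptor form, 22.1 to 35.4 RPM in mCherry tumours and 11.3 to 12.7 RPM in cortex. R108G library 1 held the 17.5 RPM, below all 3 mCherry tumours. The tissue labels were checked on marker lists: the 8 cell cycle genes summed to 306.3 to 1671 RPM in tumours, against 10.6 to 10.7 RPM in cortex, and the 12 excitatory neuron genes to 41.8 to 5955 RPM in tumours, against 7372 to 8555 RPM in cortex. Library numbers in the sample titles fell below 20, from 20 to 37 or above 37, and both cortex libraries lie in the middle range. The labels do not call these ranges batches. Only mCherry has libraries both above 37 and in a lower range, so a term for numbers above 37 rests on mCherry library 3.

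In mm10, 4 of the markers lie on chromosome 2: Gad2 at chr2:22622205-22693874, Gad1 at chr2:70553072-70602014, Lamp5 at chr2:136052239-136069917 and Slc32a1 at chr2:158610767-158615748, all on the plus strand. The others are Gabrd at chr4:155384980-155398112, Npy at chr6:49822710-49829507, Cck at chr9:121489824-121495694, Vip at chr10:5639218-5647617, Pvalb at chr15:78191114-78206400 and Sst at chr16:23889573-23890958. Gad1 overlaps the antisense gene Gad1os, and Slc32a1 the antisense gene Gm14205. The kit marks the strand, but whether the counting used it is not given in the sources used here, so reads of these pairs may not have been kept apart.

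Promoter windows of 300 bases were taken from RefSeq on GRCm38.p6, the assembly behind mm10, for 9 of the 10 markers (11 windows), all but Gabrd. The palindrome TGACGTCA, the cyclic AMP response element known from the somatostatin promoter, was searched on both strands. It was present in 588 of 32851 windows (1.79%) and, among the markers, in that of Sst. Its first 7 letters, TGACGTC, which every window with the palindrome also holds, were present in 1053 windows (3.21%) and, among the markers, in those of Sst and Vip. The 2 windows are shown because they belong to peptide genes whose levels are followed below, and capitals mark the match. That of Sst (chr16:23890795-23891094, minus strand) starts its match 48 bases before the gene start that RefSeq gives, which differs from the GENCODE start given above, so that the match lies inside the GENCODE gene. That of Vip (chr10:5638968-5639267, plus strand) starts its match 79 bases before a start that both annotations share.
Sst: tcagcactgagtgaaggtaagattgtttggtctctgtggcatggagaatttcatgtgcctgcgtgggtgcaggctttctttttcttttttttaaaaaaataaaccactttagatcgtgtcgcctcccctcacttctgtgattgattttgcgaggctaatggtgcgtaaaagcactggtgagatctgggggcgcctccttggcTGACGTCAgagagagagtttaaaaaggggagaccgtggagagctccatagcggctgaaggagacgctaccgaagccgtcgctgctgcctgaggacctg
Vip: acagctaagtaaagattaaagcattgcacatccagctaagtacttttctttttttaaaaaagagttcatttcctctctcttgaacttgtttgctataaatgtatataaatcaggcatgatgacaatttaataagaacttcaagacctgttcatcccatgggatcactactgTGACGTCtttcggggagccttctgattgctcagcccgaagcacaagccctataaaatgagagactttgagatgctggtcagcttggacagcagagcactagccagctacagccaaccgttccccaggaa

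All 10 markers had lower means in the tumours than in cortex, and 9 of the 10 fell. The test was limma on log2(RPM + 1), comparing the mean of the 8 tumour groups with cortex, with p-values adjusted over all genes and a threshold of 0.05. Over all genes tested, 24.5% were called lower and 22.9% higher. The median log2 difference was -4.11 over the 10 markers and 0.03 over all genes. Npy alone missed the threshold. Within the middle range of library numbers, which holds tumours of 5 groups beside the cortex libraries, all 10 markers again had lower means in tumours, with Npy at -2.34. Markers of excitatory neurons moved with them, 10 of 12 called lower with a median of -3.97, as did 8 of 8 pan-neuronal and 6 of 8 oligodendrocyte genes. Called higher were 7 of 8 oligodendrocyte precursor genes, 4 of 8 microglial genes and 8 of 8 cell cycle genes. Of 8 astrocyte genes 3 were called lower and 1 higher, and of 8 endothelial genes 1 lower and 2 higher. With the mean of the excitatory neuron genes as a covariate, 1 marker was called, Gad2, and it was then higher in tumours (log2 difference 2.68, limma adjusted p = 0.0428 with that covariate). The cortex libraries lie at 7.53 to 7.59 on that covariate, outside the 1.60 to 6.88 of the tumours, so this value rests on a line drawn past the tumours. In every other alternative Gad2 was lower in tumours.

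**Figure D1:**
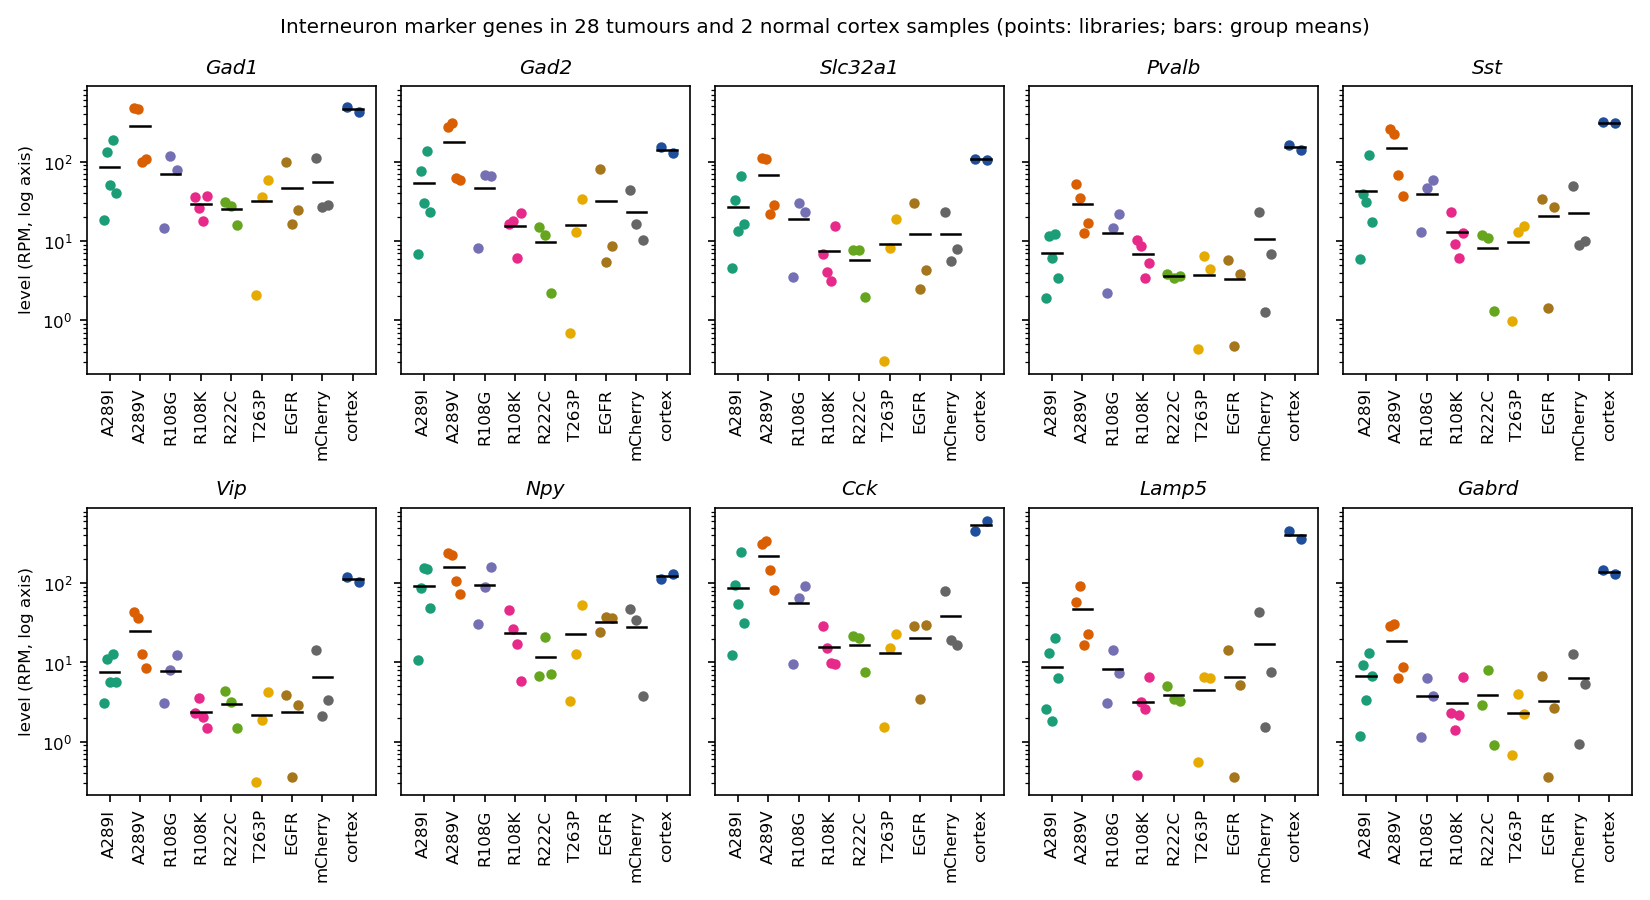
Level of each of the 10 interneuron marker genes (RPM, log axis) in every library (points) with the group mean (bar), for 8 tumour groups and cortex. A289V libraries 1 and 2 stand above all other tumours for each marker. Pvalb, Sst, Vip, Cck, Lamp5 and Gabrd stay below both cortex libraries in all 28 tumours. The share of all genes that do so is not given here.

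Among the genes that make and package GABA, Gad1, the larger of the 2 glutamate decarboxylases, ran from 2.11 to 470.0 RPM over the tumours with a median of 36.3, against 486 and 428 RPM in cortex. A289V libraries 1 and 2 had 470.0 and 461 RPM and so reached the cortex level, while the next tumour, A289I library 4, had 189 RPM. Gad1 fell by 3.35 on the log2 scale (SE 0.86, limma adjusted p = 0.00265).

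Gad2, the decarboxylase concentrated at nerve terminals, had 6.86, 76.5, 29.8, 135 and 23.4 RPM in A289I, 274, 309.6, 61.5 and 58.4 RPM in A289V, and 8.24, 67.6 and 65.7 RPM in R108G. It had 16.5, 17.9, 6.04 and 22.3 RPM in R108K, 15.2, 11.998 and 2.22 RPM in R222C, and 0.682, 13.2 and 33.7 RPM in T263P. It had 81.3, 5.39 and 8.73 RPM in wild-type EGFR tumours, 43.6, 16.5 and 10.2 RPM in mCherry tumours, and 153 and 129 RPM in cortex. A289V libraries 1 and 2 were above both cortex libraries, A289I library 4 lay between them, and every other tumour was below. Gad2 fell by 2.63 (SE 0.997, limma adjusted p = 0.0323), the smallest of the 9 falls. The call was lost without cortex library 1 (adjusted p = 0.192), without cortex library 2 (0.151), when a term for 2 or 3 library-number ranges was fitted (0.114 and 0.0734) and in DESeq2 (0.0517).

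Slc32a1, the transporter that fills vesicles with GABA, ran from 0.310 to 111 RPM over the tumours with a median of 10.8, against 108.1 and 105 RPM in cortex. Again A289V libraries 1 and 2, at 111 and 108.3 RPM, matched cortex, and the next tumour, A289I library 4, had 66.5 RPM. Slc32a1 fell by 3.17 (SE 0.89, limma adjusted p = 0.00515), a call lost without cortex library 1 (0.0654) or cortex library 2 (0.0630), with 1.07e-06 to 0.121 over all alternatives.

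The balance of the 2 decarboxylases could be read within each library. The Gad1-to-Gad2 ratio was 1.201 to 7.08 in tumours, against 3.17 and 3.32 in cortex, and 27 of 28 tumours lay below both cortex libraries. The exception was R222C library 3, with 15.7 RPM of Gad1 and 2.22 RPM of Gad2. On the log2 scale of (RPM + 1) the ratio averaged 0.95 ± 0.44 in tumours (SD, n = 28), against 1.66 and 1.72 in cortex. The difference of -0.74 did not pass a two-sided exact permutation test over the 435 ways to choose 2 libraries (p = 0.0552, 0.110 after adjustment over 2 ratios; the smallest p possible is 0.0046). Without R222C library 3 it was -0.79 (unadjusted p = 0.0049 in the same exact test), and within the middle range of library numbers -0.59 (p = 0.154). The 0.0049 is the smallest p possible once that library, the only tumour above both cortex libraries, is left out. The Gad2-to-Slc17a7 ratio set Gad2 against the vesicular glutamate transporter of cortical excitatory neurons. It was 0.0476 to 0.490 in tumours, against 0.0975 and 0.0748 in cortex. On the log2 scale of (RPM + 1) 22 tumours lay above both cortex libraries and 2 below. The log2 difference of 0.86 in this ratio had p = 0.133 in the exact permutation test (0.133 after adjustment).

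**Figure D2:**
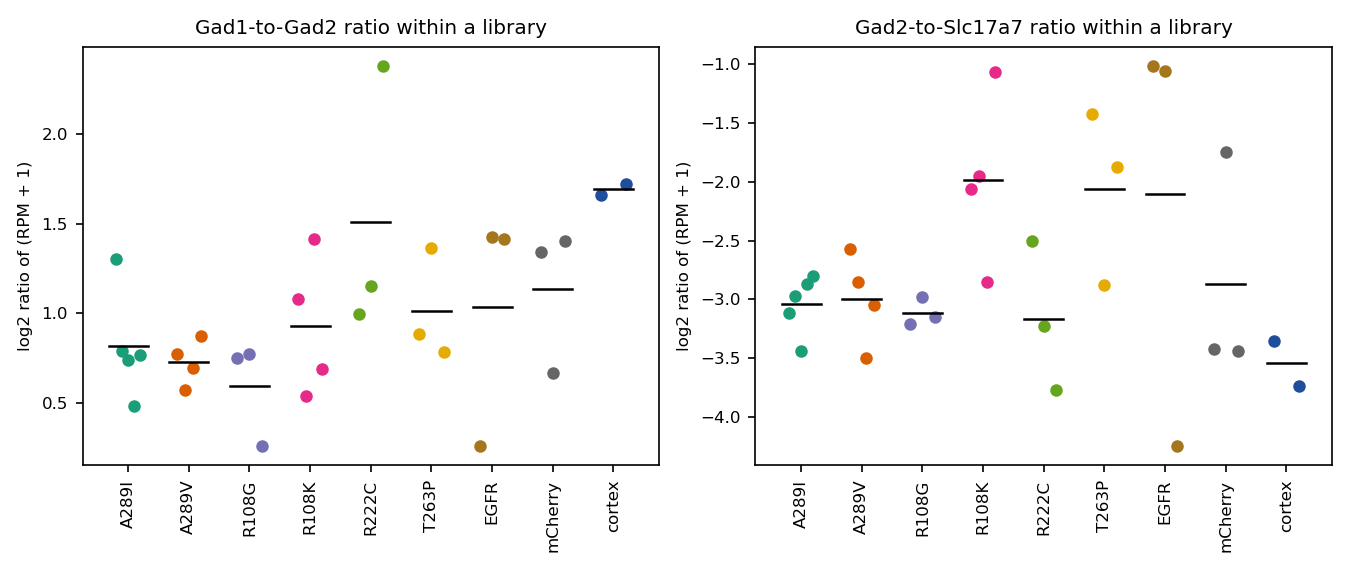
Log2 ratio of Gad1 to Gad2 (left) and of Gad2 to Slc17a7 (right), each from RPM + 1 within a library; points are libraries and bars are group means. On the left 27 of 28 tumours lie below the cortex values of 1.66 and 1.72, and R222C library 3 lies above them at 2.38.

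Pvalb, the calcium-binding protein of fast-spiking interneurons, had 52.8, 34.8, 12.6 and 16.9 RPM in A289V and 0.434 to 23.2 RPM in the other tumours, against 161 and 142 RPM in cortex. The highest tumour held 34.9% of the cortex mean, and the median tumour 3.93% of it. Pvalb fell by 4.41 (SE 0.72, limma adjusted p = 3.23e-05).

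Among the neuropeptides, Sst, somatostatin, had 5.90, 38.7, 30.7, 119.8 and 17.1 RPM in A289I, 259, 221.9, 68.3 and 36.8 RPM in A289V, and 13.0, 45.9 and 59.1 RPM in R108G. It had 23.4, 9.24, 6.19 and 12.4 RPM in R108K, 12.1, 10.99 and 1.29 RPM in R222C, and 0.992, 12.9 and 15.5 RPM in T263P. It had 33.5, 1.44 and 26.97 RPM in wild-type EGFR tumours and 49.2, 8.9998 and 10.04 RPM in mCherry tumours, against 319 and 304 RPM in cortex. All tumours were below both cortex libraries, the nearest being A289V library 1 at 83.3% of the cortex mean. Sst fell by 4.03 (SE 0.95, limma adjusted p = 0.00118).

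Vip, the vasoactive intestinal peptide, had 43.6, 36.0, 12.9 and 8.45 RPM in A289V and 0.310 to 14.2 RPM in the other tumours, against 119.7 and 105 RPM in cortex. Tumours did not overlap cortex for Vip, and it fell by 4.37 (SE 0.59, limma adjusted p = 2.85e-06). Cck, cholecystokinin, had 309.7, 337, 149 and 82.5 RPM in A289V and 1.55 to 244 RPM in the other tumours, against 456 and 615 RPM in cortex. It too did not overlap, and fell by 4.19 (SE 0.87, limma adjusted p = 0.000399).

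Npy, neuropeptide Y, stood apart from the other markers. It had 10.8, 87.5, 157, 150.5 and 48.0 RPM in A289I, 241, 228, 106 and 72.6 RPM in A289V, and 30.2, 89.1 and 162 RPM in R108G. It had 46.0, 26.4, 17.1 and 5.85 RPM in R108K, 6.75, 21.1 and 7.21 RPM in R222C, and 3.29, 12.6 and 52.8 RPM in T263P. It had 24.4, 37.4 and 36.6 RPM in wild-type EGFR tumours and 46.8, 34.2 and 3.78 RPM in mCherry tumours, against 113 and 131 RPM in cortex. Npy was above both cortex libraries in 5 tumours, A289I libraries 3 and 4, A289V libraries 1 and 2 and R108G library 3. Its log2 difference between tumours and cortex was -1.87 (SE 0.86, limma adjusted p = 0.0756). It passed without T263P library 3 (0.0458), with library weights (0.000193) and within the middle range of library numbers (0.0238), with 0.000193 to 0.639 over all alternatives.

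Lamp5, a lysosome-associated membrane protein of neurogliaform interneurons and some excitatory neurons, had 58.0, 93.2, 16.4 and 22.97 RPM in A289V and 0.360 to 42.9 RPM in the other tumours, against 449 and 358 RPM in cortex. Its lowest values rest on few reads: 1 read in R108K library 1 (0.383 RPM, exact Poisson 95% interval 0.0097 to 2.14, counting error only) and 3 reads in wild-type EGFR library 2 (0.360 RPM, 0.0741 to 1.05). Lamp5 fell by 5.76 (SE 0.86, limma adjusted p = 1.08e-05), the largest fall of the 9. Gabrd, the delta subunit of GABA-A receptors outside synapses, had 28.8, 30.5, 6.43 and 8.80 RPM in A289V and 0.360 to 13.1 RPM in the other tumours, against 145 and 129.6 RPM in cortex. Gabrd fell by 4.79 (SE 0.71, limma adjusted p = 9.44e-06).

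Set against its own cortex mean, each marker kept a different share of its level. The median over the 28 tumours was 30.4% for Npy, 14.2% for Gad2, 10.2% for Slc32a1, 7.94% for Gad1, 5.25% for Sst, 4.79% for Cck, 3.93% for Pvalb, 3.31% for Vip, 2.84% for Gabrd and 1.57% for Lamp5. Npy kept the highest share of the 10 in 23 tumours, Gad2 in 4 and Slc32a1 in 1. Lamp5 kept the lowest share in 23 tumours, Gabrd and Vip in 2 each and Sst in 1. Between tumours the spread was wide: the highest tumour held 73.4 times as much Npy as the lowest and 454 times as much Gad2. T263P library 1 was the lowest tumour for 8 of the markers and wild-type EGFR library 2 for the other two, Lamp5 and Gabrd, while A289V library 1 or 2 was the highest for all 10. Per kilobase of exon the cortex levels were 432 RPM for Sst, 410 for Cck, 215 for Npy, 146 for Pvalb, 137 for Lamp5, 59.9 for Gad1, 47.7 for Gabrd, 38.1 for Slc32a1, 33.0 for Vip and 24.04 for Gad2.

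**Figure D3:**
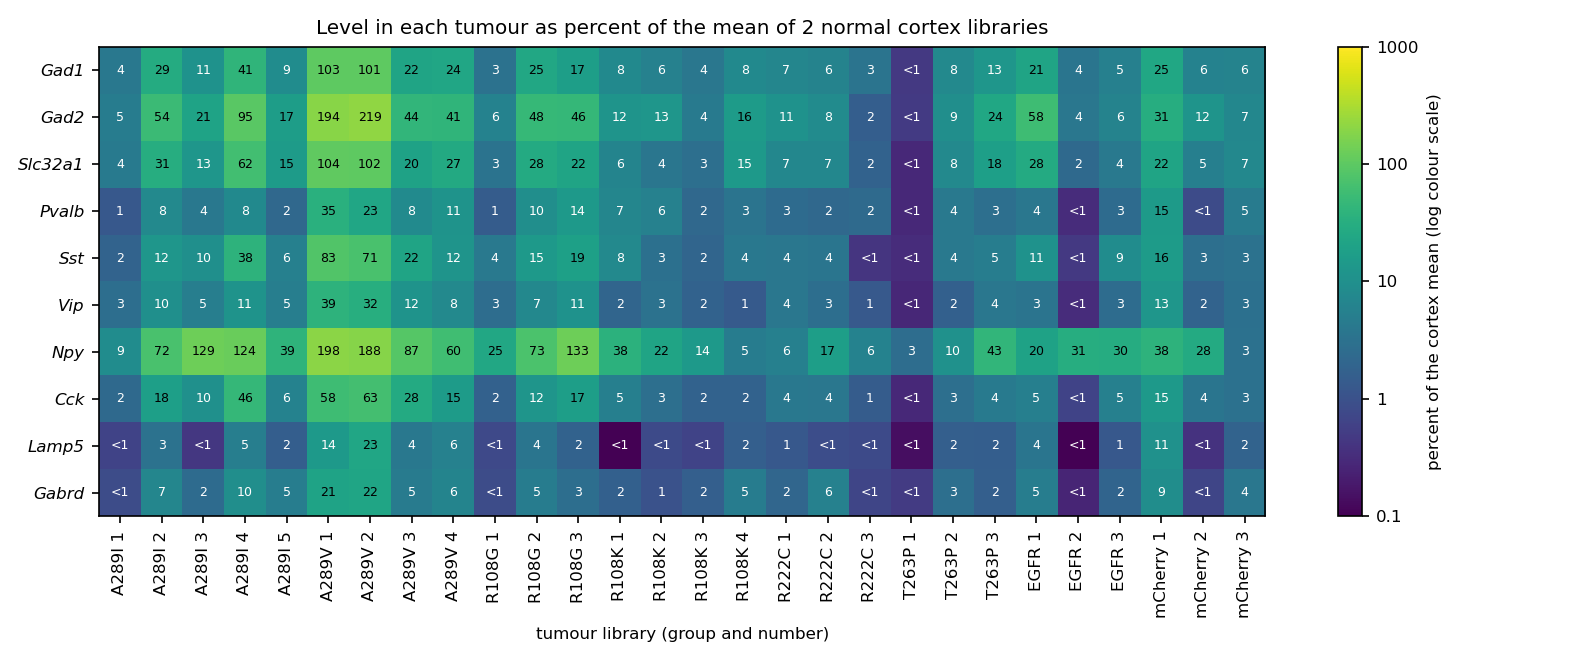
Level of each marker in each tumour as a percent of its mean in the 2 cortex libraries (numbers in cells, log colour scale). The Npy row is the brightest with a median of 30.4%, the Lamp5 row the darkest with 1.57%, and the columns of A289V libraries 1 and 2 reach 198% and 219%.

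The 8 tumour groups were also compared with cortex one by one, always against the same 2 cortex libraries. All 10 markers were called lower in R108K (22.5% of all genes lower), R222C (22.6%) and T263P (22.2%). In R108G (19.3%), wild-type EGFR (21.9%) and mCherry tumours (20.5%) 8 were, all but Gad2 and Npy. In A289I (21%) 7 were, all but Gad2, Slc32a1 and Npy. In A289V (6.21%) 4 were: Pvalb by -2.54 (limma adjusted p = 0.0455), Vip by -2.39 (0.0208), Lamp5 by -3.36 (0.0261) and Gabrd by -3.09 (0.0136). The other A289V values were -1.05 for Gad1, -0.09 for Gad2, -1.01 for Slc32a1, -1.49 for Sst, -1.48 for Cck and 0.24 for Npy, with adjusted p from 0.350 to 0.970 in limma. Of these, Gad2 and Npy were too near 0 for a direction: Gad2 was 0.40 with library weights, 0.30 in edgeR and 0.32 in DESeq2, and Npy was -0.47 without A289V libraries 1 and 2. Without cortex library 1 or 2 the counts were 4 and 4 in A289I, 0 and 0 in A289V, 5 and 4 in R108G, and 5 and 4 in mCherry tumours. The A289V count was 1 without A289V library 3 or library 4, and the R108G count 4 without R108G library 1. For fits with a library left out the share of all genes called lower is not given here. When a term for 2 library-number ranges was fitted, no marker was called in A289I or R108G, which have no library in the range of the cortex samples. That term rests on mCherry library 3 against mCherry libraries 1 and 2, so the loss of these calls says little about library number.

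Genes that work alongside the markers were read from 4 further lists. Of 24 genes of interneuron identity and development, 13 were called lower in tumours than in cortex and 1 higher, with a median log2 difference of -1.86. The homeobox factors Dlx1 and Dlx2, which drive interneuron development, fell by 2.65 and 1.86, whereas their relative Dlx5 differed by 0.10 (limma adjusted p = 0.947). The gene called higher was Sox6, named after its value was seen, a transcription factor of interneurons that oligodendrocyte precursors also make, with 83.7 to 386 RPM in tumours and 13.2 to 16.7 RPM in cortex. Of 19 genes of GABA receptors and GABA handling 15 were called lower and none higher, among them the receptor subunit gene Gabrb2 (-3.26) and the scaffold protein gene Gphn (-0.74). Of 10 tested receptors for the peptides 8 were called lower, including the somatostatin receptors Sstr2 (-2.52), Sstr3 (-2.89) and Sstr4 (-1.70), while Sstr1 had -0.36 (limma adjusted p = 0.673). The eleventh listed receptor, Cckar, did not pass the filter on low values. Of 9 genes of peptide processing 8 were called lower, including the prohormone convertases Pcsk1 (-2.68) and Pcsk2 (-3.73) and the carboxypeptidase Cpe (-2.37), while the amidating enzyme Pam had -1.05 (adjusted p = 0.0543).

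Among the tumours, A289V had the highest mean of each marker. Summed over the 10, the levels were 444 to 1861 RPM in A289V, 67.8 to 964 RPM in A289I, 88.4 to 527 RPM in R108G, 70.2 to 173 RPM in R108K, 45.3 to 118 RPM in R222C and 10.9 to 219.9 RPM in T263P. They were 67.9 to 326 RPM in wild-type EGFR, 100.6 to 447 RPM in mCherry tumours and 2446 to 2509 RPM in cortex. The sum over the whole set thus overlapped between A289V and each of A289I, R108G and mCherry, and was higher in all A289V tumours than in any R108K, R222C, T263P or wild-type EGFR tumour. The means of neighbouring groups lay within their spread: Gad2 averaged 176 ± 135 RPM in A289V, 54.3 ± 51.9 in A289I, 47.2 ± 33.7 in R108G, 15.8 ± 16.7 in T263P, 15.7 ± 6.87 in R108K, 9.80 ± 6.76 in R222C, 31.8 ± 42.9 in wild-type EGFR and 23.4 ± 17.8 in mCherry tumours, against 141 ± 17.1 in cortex (SD, n as given above). Npy averaged 162 ± 85.4 RPM in A289V, 93.8 ± 66.01 in R108G, 90.8 ± 63.7 in A289I, 23.8 ± 17.0 in R108K, 22.9 ± 26.3 in T263P, 11.7 ± 8.15 in R222C, 32.8 ± 7.28 in wild-type EGFR and 28.3 ± 22.1 in mCherry tumours, against 122 ± 12.9 in cortex. An F-test in limma for any difference among the 8 tumour groups called 3 markers, Vip (adjusted p = 0.0166), Npy (0.0358) and Cck (0.0269), where 10.3% of all genes were called. The same question gave 7 markers in edgeR (13.9% of all genes), 10 in DESeq2 (24.5%) and 10 in limma with library weights (37.1%). The F-test in limma called none without A289V library 1 or A289V library 2, and 5 without A289I library 1 or mCherry library 1. The share of all genes called in these refits is not given here, so their counts are no result about the markers alone.

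Against wild-type EGFR, what a variant adds to the receptor itself, A289V tumours had higher means of all 10 markers and 6 rose. Called were Cck (log2 difference 3.58, SE 0.91, limma adjusted p = 0.0148), Sst (3.06, SE 0.99, adjusted p = 0.0394), Lamp5 (2.95, SE 0.90, 0.0306), Vip (2.87, SE 0.61, 0.00880), Pvalb (2.85, SE 0.76, 0.0173) and Gabrd (2.26, SE 0.74, 0.0420). Gad2 (2.95), Slc32a1 (2.68), Gad1 (2.65) and Npy (2.12) had adjusted p of 0.0582, 0.0549, 0.0503 and 0.111. Of all genes 13.7% were called in either direction and 9.69% higher. Vip had 43.6, 36.0, 12.9 and 8.45 RPM in A289V tumours, against 3.85, 0.360 and 2.88 RPM in wild-type EGFR tumours. Cck had 309.7, 337, 149 and 82.5 RPM in A289V tumours, against 28.5, 3.48 and 29.4 RPM in wild-type EGFR tumours. Gabrd overlapped, with 6.43 RPM in A289V library 3 against 6.74 RPM in wild-type EGFR library 1. Sst and Lamp5 were near overlap: the lowest A289V tumours had 36.8 and 16.4 RPM, the highest wild-type EGFR tumours 33.5 and 14.4 RPM. The count of 6 fell to 1 without A289V library 1 and to 0 without A289V library 2, without both, or without wild-type EGFR library 2. For these refits the share of all genes called is not given here, so the drop is no result about the markers alone. The count was 3 in edgeR (7.82% of all genes higher), 9 in DESeq2 (11.6%) and 10 with library weights (16.8%). Within one range of library numbers none was called, but each such comparison has a group of 1 library, A289V library 1 below 20 and wild-type EGFR library 3 from 20 to 37, so these counts say nothing about library number. All 6 had a positive difference in both ranges.

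Neuronal genes at large moved in the same direction in this comparison. Excitatory neuron genes were called higher in 10 of 12 cases (median 2.60), pan-neuronal genes in 7 of 8 (median 2.73), genes of interneuron identity in 8 of 24, of GABA receptors and handling in 11 of 19, of peptide receptors in 7 of 10 and of peptide processing in 5 of 9. The summed excitatory neuron level was 1688 to 5955 RPM in A289V tumours, against 116 to 681 RPM in wild-type EGFR tumours. Cell cycle genes were called lower in 6 of 8 cases and summed to 306.3 to 647 RPM in A289V tumours, against 847 to 1229 RPM in wild-type EGFR tumours. With the excitatory neuron mean as a covariate no marker was called. Differences then were -0.72 for Sst, -0.50 for Lamp5, -0.40 for Gabrd, -0.07 for Pvalb, 0.07 for Cck and 0.56 for Vip.

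**Figure D4:**
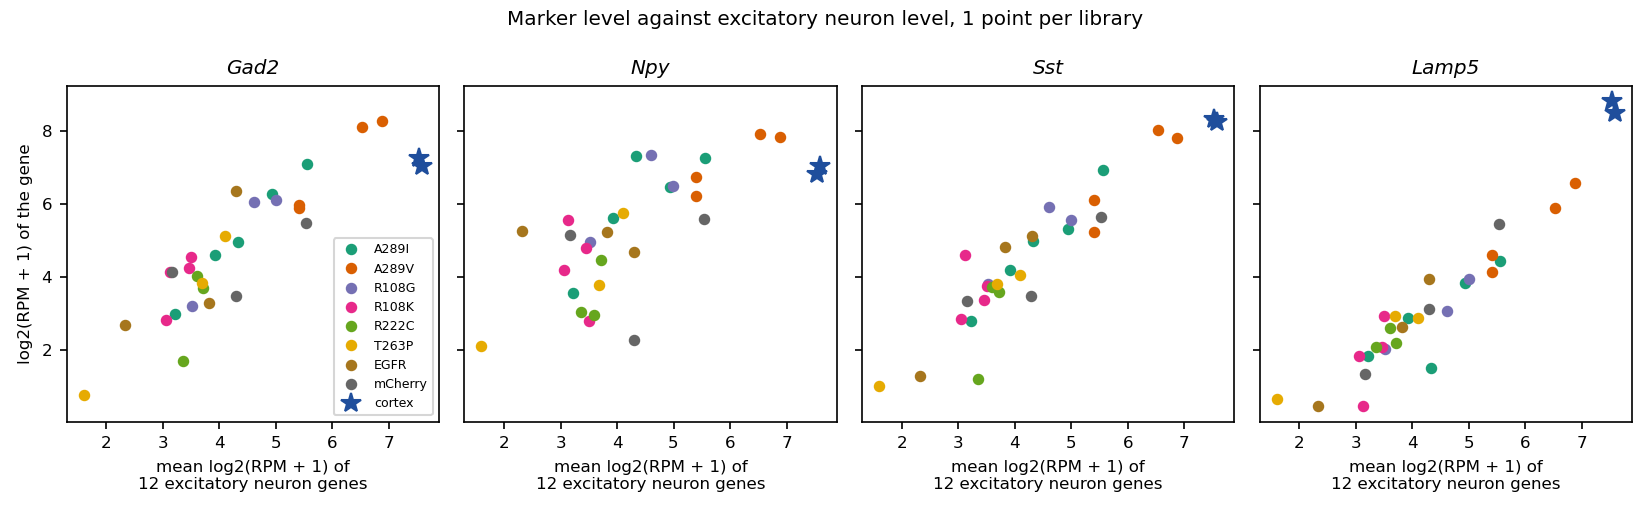
Level of Gad2, Npy, Sst and Lamp5 (log2 of RPM + 1) against the mean of 12 excitatory neuron genes on the same scale, 1 point per library. Tumours span 1.60 to 6.88 on the horizontal axis and cortex 7.53 to 7.59; Npy exceeds both cortex libraries in 5 tumours, and A289V libraries 1 and 2 lie furthest right among the tumours.

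Against mCherry, the tumours without an introduced receptor, A289V again had higher means of all 10 markers, by 1.56 (Gabrd) to 2.85 (Npy) on the log2 scale, but none passed in limma (adjusted p 0.0582 to 0.194). All 10 had an unadjusted p below 0.05. Of all genes 4.91% were called in either direction and 3.23% higher. DESeq2 called 4 higher, Gad1 (2.35, adjusted p = 0.0395), Gad2 (2.91, 0.0457), Npy (2.52, 0.0254) and Cck (2.52, 0.0316), where it called 6.89% of all genes higher, and edgeR called none. The limma count was 8 with library weights (12.4% of all genes higher), 3 without A289V library 4 and 5 without mCherry library 1. For the fits with a library left out the share of all genes is not given here. For Npy the A289V tumours had 241, 228, 106 and 72.6 RPM, against 46.8, 34.2 and 3.78 RPM in mCherry tumours, without overlap. For Lamp5 they had 58.0, 93.2, 16.4 and 22.97 RPM, against 42.9, 1.54 and 7.63 RPM in mCherry tumours, and these overlapped. Gad1, Slc32a1, Pvalb, Sst, Vip and Gabrd overlapped too, while Gad2 and Cck did not. The share of all genes without overlap is not given here. Among partners of the markers, limma called higher 1 of 19 genes of GABA receptors and handling, 4 of 10 peptide receptors (Sstr3 by 2.03 and Sstr4 by 1.35 among the named ones), 1 of 9 peptide processing genes, 2 of 8 pan-neuronal genes, 2 of 8 oligodendrocyte genes, 2 of 8 astrocyte genes, 1 of 8 oligodendrocyte precursor genes and none of 24 interneuron identity or 12 excitatory neuron genes. The summed excitatory neuron level was 1688 to 5955 RPM in A289V tumours, against 225 to 1914 RPM in mCherry tumours. With its mean as a covariate none of the 10 markers was called in limma, and 5 had differences below 0: Lamp5 (-0.33), Gabrd (-0.23), Slc32a1 (-0.16), Pvalb (-0.16) and Gad1 (-0.14).

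**Figure D5:**
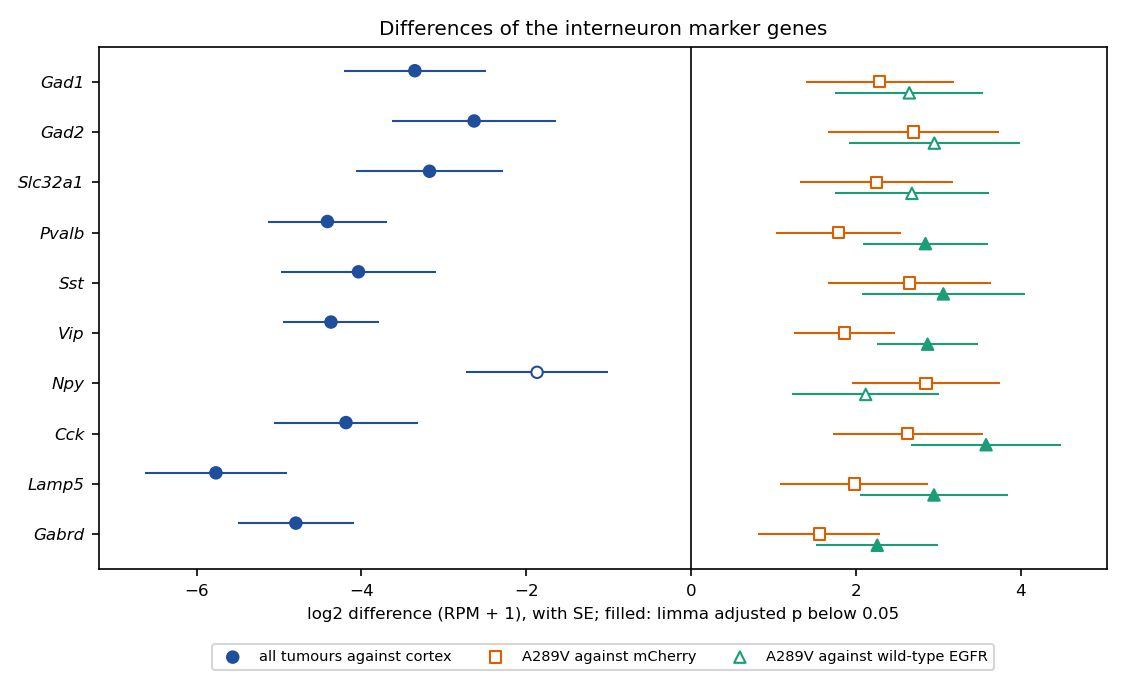
Log2 difference of each marker with its standard error for all tumours against cortex (circles), A289V against mCherry (squares) and A289V against wild-type EGFR (triangles); filled symbols have a limma adjusted p below 0.05. All circles lie left of 0, with Lamp5 at -5.76 and the unfilled Npy at -1.87, and all squares and triangles lie right of it.

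No marker was called for the other receptor forms. Against mCherry, limma called no marker in A289I (0.607% of all genes called), R108G (0.0379%), R108K (0.0695%), R222C (0%), T263P (0.00632%) or wild-type EGFR (0%), no marker had an unadjusted p below 0.05, and edgeR and DESeq2 called none. Against wild-type EGFR, limma, edgeR and DESeq2 called none in A289I (0.335% of all genes in limma), R108G (0%), R108K (0%), R222C (0%) or T263P (0%). Here 2 markers in A289I and 1 in R108G had an unadjusted p below 0.05, and none in the other three. With so few genes called at all, these counts of 0 are no result about the markers. A289I and A289V, which change the same residue, were compared directly: A289I had lower means than A289V for all 10 markers, 8 with an unadjusted p below 0.05, and none was called by limma (0% of all genes), edgeR or DESeq2, but 6 were lower with library weights (13.6% of all genes lower). Likewise for the shared residue of R108G and R108K, R108G had higher means than R108K for all 10 markers, 2 with an unadjusted p below 0.05, and none was called by any of the 3 tools (0% of all genes in limma).

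Across the 28 tumours the markers mostly ranked the tumours alike. This is a description only: the markers of a library share its depth and its content of neurons, and both differ between libraries. On log2(RPM + 1) Pearson's r between 2 markers ran from 0.52 (Npy and Lamp5) and 0.55 (Npy and Gabrd) to 0.98 (Gad2 and Slc32a1). The closest genes outside the set were sought among the 12033 genes whose tumour mean was 5 RPM or more. For the GABA genes, Ndrg4 came first for Gad1 (r = 0.98), Gad2 (0.97) and Slc32a1 (0.96), followed by the potassium channel gene Kcnc1 (0.97), St8sia3 (0.96) and the histamine receptor gene Hrh3 (0.96). Pvalb was closest to the synaptic vesicle gene Vamp1 (0.95) and Snph (0.93). Of the peptide genes, Sst was closest to Vstm2l (0.98) and Syt5 (0.97), Vip to Matk (0.96) and Tuba4a (0.96), and Cck to Slc17a7 (0.97) and Pitpnm3 (0.97). Npy was closest to the secretogranin gene Scg2 (0.92) and the corticotropin-releasing hormone binding protein gene Crhbp (0.91). Gabrd was closest to Elmod1 (0.93) and Kcns2 (0.92). Lamp5 was closest to Kcnh3 (0.95) and Necab3 (0.95).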

How the data were processed

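RNA of 28 tumours and 2 cortex samples (3 to 5 tumours per group, from 3 to 5 mice each, per the labels' design text; whether the cortex samples are from different mice is not stated, so their spread may be technical) was sequenced from stranded TruSeq libraries of polyadenylated RNA. The submitters' processing notes name FastQC, STAR 2.5.0a, mm10 and DESeq2 1.20.0, without their roles; the counting tool and its strand setting are not given in the sources used here. Each deposited value is a signal, gene read counts that the authors divided by 1 size factor per library. Dividing each library by the worth of 1 read, found from its own values, turned 100% of them into whole reads (tolerance 0.05 read), and the median ratio to the geometric mean was 1.00184 in each library. The tables are named RPM, but each library summed to between 9.311872 and 12.036037 times the RPM total. The design, written for RPM, was therefore applied to the deposited values divided by 10.263777 and called RPM here.

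Genes reaching 1 RPM in 3 or more libraries (15824 of 24421; 3274 had no read) were tested with limma 3.58.1 in R 4.3.3 on log2(RPM + 1): 9 group means over all 30 libraries, eBayes with trend and robust, two-sided, Benjamini-Hochberg adjustment over all genes (threshold 0.05). Fold changes on this scale understate those of low genes. Count tests on the recovered reads used the quasi-likelihood method of edgeR 4.0.16 and the Wald test of DESeq2 1.42.0. On simulated data with 200 of 15824 genes changed, A289V against mCherry recovered 85% of 8-fold and 54% of 2.8-fold changes (7 false of 146 calls), and mCherry against cortex 77% and 31% (8 false of 116). Each gene was drawn independently around its mean over all libraries. The shared movement of the markers between libraries was not simulated, so these rates need not hold for them. The 2 ratios were tested by exact enumeration of library splits. Other alternatives were TMM rescaling, library weights, a filter of 5 RPM or none, a pseudocount of 0.1 RPM, a fit of the compared groups alone, terms for 2 or 3 library-number ranges, the excitatory neuron mean as a covariate, and fits without A289V libraries 1 and 2 or without each single library. Comparisons within 1 range were chosen after seeing the data.

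The members, lists and tests were chosen with earlier results of these data known. Named were the 10 markers, the 2 genes outside the set with the highest Pearson's r with each over the tumours (mean of at least 5 RPM, Xist, Tsix, Y-linked genes and predicted loci passed over), and the first 4 genes of each list, some of which are not reported here. Library numbers within a group follow accession order. Positions are from GENCODE M21. Ratios, likeness and figures were computed in Python 3.11.15 (scipy 1.17.1, numpy 2.4.6, matplotlib 3.10.9, pandas 2.3.3).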

Additional observations from a re-analysis of the deposited data

Results flagged for a closer look

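Sst in A289I library 4, at 119.8 RPM, was the only one of 30 sets of 4 or 5 tumours (10 markers in A289I, A289V and R108K) in which 1 tumour lay further from the rest than Dixon's 95% limit allows. The other A289I tumours had 5.90 to 38.7 RPM of Sst. Chance alone gives about 1 such set in 20. The same library had the highest Gad1, Gad2, Slc32a1, Pvalb, Vip, Cck, Lamp5 and Gabrd of the group, and its excitatory neuron genes summed to 2402 RPM, the most in A289I.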

How the results depend on the processing

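Directions were recomputed for all 10 markers in all tumours, mCherry and A289V against cortex and in A289V against mCherry, and elsewhere for the called markers. Apart from Gad2 and Npy in A289V against cortex, none of these changed under TMM rescaling, another pseudocount or filter, library weights, a term for library numbers, edgeR, DESeq2, one range of library numbers or any library left out. In A289V against cortex Gad2 (-0.09) was 0.40 with library weights, 0.30 in edgeR, 0.32 in DESeq2, and from -0.49 to 0.30 with single libraries left out (above 0 without A289V library 3, A289V library 4 or cortex library 1). Npy (0.24) was -0.47 without A289V libraries 1 and 2, -0.0083 within the numbers 20 to 37, and from -0.0083 to 0.56 with single libraries left out (below 0 without A289V library 1). With the excitatory neuron mean as a covariate further directions changed. For all tumours against cortex these were Gad1 (1.56), Gad2 (2.68), Slc32a1 (1.69), Sst (1.09), Npy (1.03) and Cck (0.57), for A289V against cortex Gad1 (1.08), Gad2 (2.21), Slc32a1 (1.10), Sst (0.72) and Cck (0.58), for A289V against mCherry Gad1 (-0.14), Slc32a1 (-0.16), Pvalb (-0.16), Lamp5 (-0.33) and Gabrd (-0.23), and for A289V against wild-type EGFR Pvalb (-0.067), Sst (-0.72), Lamp5 (-0.50) and Gabrd (-0.40). Directions with that covariate in the other comparisons are not given here. With it 1 marker was called against cortex for all tumours, and 1 each in A289I, A289V and R108G. For all tumours and for A289V this was Gad2, higher in tumours (limma adjusted p = 0.0428 and 0.0323 with that covariate). Both values rest on a line drawn past the tumours. The marker called in A289I and in R108G is not given here. The count was 0 in R108K, R222C, T263P, wild-type EGFR and mCherry. It was also 0 for A289V against wild-type EGFR and 0 in the F-test. A term for 2 or for 3 ranges gave 0 in A289I and 0 in R108G against cortex, and the term for 3 ranges 5 in mCherry. The part of it for numbers above 37 rests on mCherry library 3, so the A289I and R108G counts say little about library number. A289V against cortex had 0 with a pseudocount of 0.1 RPM and 2 in edgeR. Library weights gave 8 for A289V against mCherry, 10 against wild-type EGFR, 6 for A289I against A289V and 10 in the F-test. DESeq2 gave 4 for A289V against mCherry and 10 in the F-test, and edgeR 3 for A289V against wild-type EGFR and 7 in the F-test. Without A289V libraries 1 and 2 there were 0 for A289V against wild-type EGFR and 0 in the F-test, and 0 for A289V against wild-type EGFR within the numbers below 20 and 0 within 20 to 37. The last 2 counts rest on a group of 1 library and say nothing about library number. The cause was not tested.

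With each library left out in turn, counts ranged from 7 to 10 for all tumours against cortex, 4 to 8 in A289I, 0 to 4 in A289V, 4 to 8 in R108G, 6 to 9 in wild-type EGFR, 4 to 9 in mCherry and 8 to 10 in R108K, R222C and T263P. They ranged from 0 to 5 for A289V against mCherry, 0 to 9 against wild-type EGFR and 0 to 5 in the F-test, and the log2 difference in the Gad1-to-Gad2 ratio from -0.79 to -0.71 (exact permutation p 0.0049 to 0.138). Without 1 cortex library the spread of the lone other one was taken from the tumour groups. The share of all genes called in the fits with a library left out is not given here, so these counts are no result about the markers alone. No paired analysis was possible because the labels number no replicates and nothing pairs mice across groups. At 0.0387 to 0.383 RPM per read, tumours with single-digit reads of Slc32a1, Lamp5, Vip, Pvalb or Gabrd give wide counting intervals.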
